A study of Mus musculus with 12 samples.

Results

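The effect of cisplatin alone on the tumour transcriptome was measured by comparing 3 libraries from cisplatin-treated tumours with 3 from vehicle-treated tumours, which is 6 of the 12 libraries of the series. The tumours were grafts of Lewis lung carcinoma (LLC) cells, a mouse lung cancer line of C57BL/6 origin, grown in both flanks of female C57BL/6 mice aged 6 to 8 weeks. Vehicle or cisplatin was given into the peritoneum 2 times per week for 4 weeks, starting once total tumour volume had reached 100 mm3, and the sources used here give no dose. The other 6 libraries came from tumours given brivanib, which blocks the receptor kinases of VEGF and FGF, or brivanib together with cisplatin (the combination). All 4 groups carried the same graft in the same host, which has an intact immune system. The labels number the tumours but do not tie them to animals, and each mouse could carry 2 tumours, so a p-value speaks only to the spread among these samples, and tumours of 1 animal would not be independent. Levels are fragments per kilobase of transcript, scaled to library size (FPKM), summed over the transcripts of a gene. A gene was tested where its mean over the 12 libraries reached 1 FPKM, which held for 14246 of 53801 genes.

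Cisplatin is a platinum compound that binds DNA bases and links them within and between strands. Such links stall replication forks, are recognised by the checkpoint kinases ATR and CHK1, and are removed by nucleotide excision repair, the Fanconi anaemia pathway and homologous recombination. Cells with unrepaired links are held before mitosis by WEE1 and other inhibitors of the mitotic kinase CDK1, and p53, where it works, raises genes of arrest and death. Outside the tumour the drug is known for harm to kidney, nerve and bone marrow.

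The 6 libraries held 18.136 M to 22.683 M recovered fragments (M, 1e6), with overlap between the groups. Recovered fragments made up 91.391% to 94.447% of each vehicle library's FPKM scaling total and 97.181% to 100.25% of each cisplatin library's, so the deposited scale itself differed between the groups. The median log2 fold change over all genes was 0.07 on the deposited scale and 0.01 after every library was rescaled to the same FPKM total. For skeletal muscle markers the average log2(FPKM + 1) was 0.365 to 0.408 in vehicle libraries, 0.389 in cisplatin 2, 1.19 in cisplatin 3 and 1.34 in cisplatin 1. Adipocyte markers stood at 0.739 to 0.758 in vehicle, 0.651 and 0.75 in cisplatin 2 and 3, and 1.74 in cisplatin 1. The lung lineage markers Nkx2-1, Sftpc and Krt18 were listed at 0 in all 6 libraries, and only 2 of 12 lung epithelial markers, Napsa and Cdh1, passed the filter. The 3 vehicle libraries lay at -25.0 to -15.7 and the 3 cisplatin libraries at 11.3 to 25.7 on the first principal component, which held 36.1% of the variance of the 6 libraries.

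The largest fold changes between cisplatin and vehicle tumours were in globin transcripts of red cells, which fell, and among the genes that rose were kinases and cytoskeletal genes of cell division, mitochondrial transcripts and a channel subunit that carries platinum drugs. In all 27 of 14246 genes (0.19%) passed an adjusted p of 0.05, of which 17 were higher (0.119%) and 10 lower (0.0702%). The fold change was at least 2-fold for 5 of the higher and 6 of the lower genes, and 1.06% of all genes reached that size with or without passing. At an unadjusted p under 0.05 there were 2036 genes, 1542 higher and 494 lower. The 3 cisplatin values lay above all 3 vehicle values for 17.0% of all genes tested and below them for 6.72%. With cisplatin 1 and brivanib 5 left out, a pair chosen after the data were seen, the count was 5. These were Hbb-bs, Hbb-bt, Hba-a1, Hba-a2 and Alas2. Without cisplatin 1 alone the count was also 5. The calls fell to 0 when vehicle 2, 3 or 5 was left out (1641, 1438 and 1914 genes at an unadjusted p under 0.05), and numbered 3 when cisplatin 3 was left out. Of the libraries outside the comparison, which bear on it through the shared spread, leaving out brivanib 2, 3 or 5 gave 100, 42 or 9 calls and leaving out combination 2 gave 10. The higher genes made up 63.0% of the calls on the deposited scale and 36.4% of 11 calls after rescaling to equal totals (630 at an unadjusted p under 0.05). That rescaling includes brivanib 5, with an FPKM total of 921510 against 471828 to 527657 in the others. In the 6 libraries alone at equal totals, 1 of 5 calls was higher (2258 at an unadjusted p under 0.05). The effect of brivanib 5 on the rescaled calls was not tested. Limma's voom on recovered fragments called 0 (1907 at an unadjusted p under 0.05). In the 17 genes that rose, cisplatin 2 was the lowest of the cisplatin libraries for 9, cisplatin 3 for 6 and cisplatin 1 for 2. Over 26 alternative settings, Hbb-bs, Hbb-bt, Hba-a1 and Alas2 passed in 16 to 19 and Hba-a2 in 11. Of the genes that rose, Zbtb6 passed in 17 and mt-Tl1 in 16. Wee1 passed in 7, Nek2 in 6, Lrrc8d in 5 and mt-Nd5 and Tuba1c in 4 each.

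**Figure D1:**
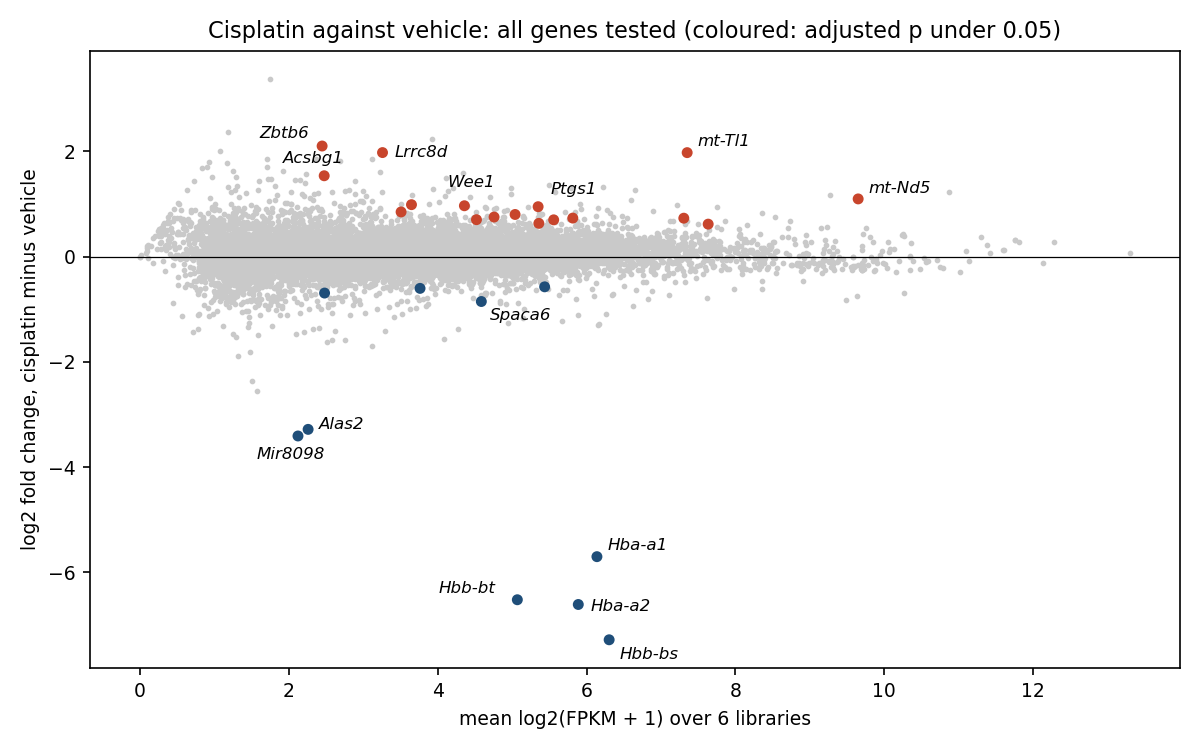
Each point is 1 of the 14246 genes tested, with the mean log2(FPKM + 1) of the 6 libraries on the x axis and the log2 fold change of cisplatin minus vehicle on the y axis. The 17 genes that rose (red) have log2 fold changes of 0.62 to 2.10, while the 4 globin genes and Alas2 lie between -7.29 and -3.28.

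Adult red cells carry globin messenger RNA left over from their precursors, which make it together with ALAS2, the enzyme that starts haem synthesis in erythroid cells. Hbb-bs, an adult beta globin gene (chr7:103826534-103828096, minus strand, GRCm38), stood at 655, 1245 and 1173 FPKM in vehicle 2, 3 and 5 and at 32.9, 6.46 and 0 FPKM in cisplatin 1, 2 and 3. Hbb-bt, its neighbour in the beta globin cluster, stood at 213, 398 and 391 FPKM in vehicle and 10.3, 2.80 and 0 FPKM in cisplatin. The alpha globin gene Hba-a1 (chr11:32283511-32284465) stood at 332, 568 and 695 FPKM in vehicle and 25.5, 5.75 and 4.2 FPKM in cisplatin. In these genes and in the second alpha globin gene Hba-a2, the highest cisplatin library was far under the lowest vehicle library. Hba-a2 stood at 397, 625 and 809 FPKM in vehicle and 29.4, 6.05 and 0 FPKM in cisplatin. The log2 fold changes were -7.29 ± 1.0 (SE) for Hbb-bs, -6.61 ± 1.01 for Hba-a2, -6.52 ± 0.81 for Hbb-bt and -5.71 ± 0.72 for Hba-a1, with adjusted p of 0.0225 to 0.0374. The paired copies are nearly identical, so the division of fragments between Hba-a1 and Hba-a2, and between Hbb-bs and Hbb-bt, is uncertain.

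Summed over the 4 globin genes, the vehicle libraries held 23850, 40068 and 37360 fragments, or 0.109%, 0.197% and 0.206% of all recovered fragments. The cisplatin libraries held 1327, 310 and 59 fragments, or 0.0063%, 0.00137% and 0.000287%. These sums do not depend on how RSEM, the authors' quantifier, split the copies. Cisplatin 1, which of these 6 libraries had the most muscle and fat marker signal, held the most globin fragments of the cisplatin group, and vehicle 2 the fewest of the vehicle group. In bulk tumour RNA, fewer red cells and less RNA per red cell cannot be told apart. Alas2 (chrX:150547375-150570638) stood at 10.2, 16.0 and 16.6 FPKM in vehicle and 1.49, 0.168 and 0.239 FPKM in cisplatin, a log2 fold change of -3.28 ± 0.42 (adjusted p = 0.0225). The Alas2 transcript ENSMUST00000112715 stood at 6.38 to 12.5 FPKM in vehicle and was listed at 0 in every cisplatin library.

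These 5 genes are the erythroid members that fell, and their promoters are shown because they dropped together. Each line gives the 120 bases before the RefSeq start (GRCm38.p6), with capitals marking the CCAAT box, the CACCC motif of erythroid promoters, a TATA box spelled ATATAA and a GATA factor motif spelled AGATAA, searched on both strands.
Hbb-bs, chr7:103827929-103828048, minus strand: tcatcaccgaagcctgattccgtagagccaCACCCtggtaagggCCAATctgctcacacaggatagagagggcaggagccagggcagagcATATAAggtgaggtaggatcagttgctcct
Hbb-bt, chr7:103813924-103814043, minus strand: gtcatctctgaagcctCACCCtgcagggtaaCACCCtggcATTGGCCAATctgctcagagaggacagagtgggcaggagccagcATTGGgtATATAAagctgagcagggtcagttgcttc
Hba-a1, chr11:32283552-32283671, plus strand: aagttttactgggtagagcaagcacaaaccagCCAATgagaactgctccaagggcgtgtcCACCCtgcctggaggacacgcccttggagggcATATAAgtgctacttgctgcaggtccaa
Hba-a2, chr11:32296372-32296491, plus strand: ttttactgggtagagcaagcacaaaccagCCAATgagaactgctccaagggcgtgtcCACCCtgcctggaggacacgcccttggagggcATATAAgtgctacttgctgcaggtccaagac
Alas2, chrX:150547297-150547416, plus strand: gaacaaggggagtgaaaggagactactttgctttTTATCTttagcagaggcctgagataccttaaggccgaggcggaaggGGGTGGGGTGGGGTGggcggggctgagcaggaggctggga
The 4 globin windows each held the CCAAT box, the CACCC motif and the TATA box. The Alas2 window held the GATA motif and the CACCC motif, both on the opposite strand. In the 250 bases before the start, CCAAT was in 33.8%, CACCC in 52.0%, ATATAA in 9.1% and AGATAA in 9.99% of the 32851 promoters of the table. Over the promoters of genes tested these shares were 35.5%, 56.9%, 4.21% and 5.73%. A match describes letters only and shows no binding.

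Of the other erythroid markers, Mgst3 and Ank1 were tested and neither passed, with log2 fold changes of 0.30 and -0.23. The remaining 22 of 29 matched markers were below the filter, and 12 of them were listed at 0 in all 3 cisplatin libraries. Of these 12 only 5 were above 0 in any vehicle library. Among the 5 the red cell membrane gene Slc4a1 (band 3) stood at 0.0917 to 0.198 FPKM in vehicle. The precursor genes Gata1, Klf1 and Tal1, which encode transcription factors, stayed at or under 0.796 FPKM in both groups. No member of the haem synthesis and iron list outside the erythroid list passed (0 of 21). Its first enzyme in other tissues, Alas1, stood at 18.3 to 22.8 FPKM in vehicle and 27.2 to 29.0 FPKM in cisplatin (0.49 ± 0.19, adjusted p = 0.262). Other blood cell lists had no member past the test, with 0 of 3 platelet and 0 of 11 neutrophil genes. The platelet factor Pf4 was at 32.9, 49.4 and 34.1 FPKM in vehicle and 83.6, 103 and 38.6 FPKM in cisplatin, with no separation of the groups. Endothelial markers likewise had 0 of 20 past the test, with 3 apart upward and 0 downward, against 17.0% and 6.72% of all genes. Of the 20, 15 were below 0 and the median was -0.16.

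**Figure D2:**
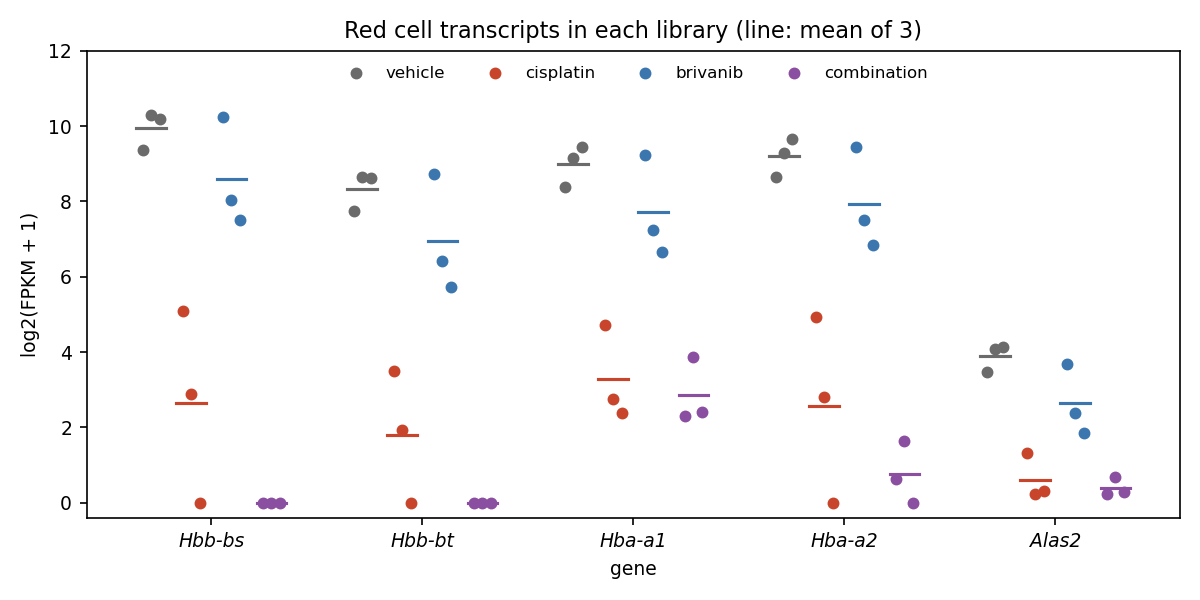
The log2(FPKM + 1) of the 4 globin genes and Alas2 is plotted for each of the 12 libraries, with a line at each group mean. Every cisplatin and combination library lies under every vehicle library, and Hbb-bs and Hbb-bt are listed at 0 in all 3 combination libraries.

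Genes of the G2 phase and of mitosis stood higher in cisplatin tumours. Wee1, which encodes the kinase that keeps CDK1 inactive (chr7:110122046-110143286), stood at 14.2, 13.2 and 13.6 FPKM in vehicle and 29.8, 20.7 and 34.4 FPKM in cisplatin. The groups did not overlap, and cisplatin 2 was the lowest cisplatin library. The log2 fold change of Wee1 was 0.97 ± 0.15 (adjusted p = 0.0385). Of 19 tested G2 checkpoint genes Wee1 was the only one past the test, and for 15 of 19 all cisplatin values lay above all vehicle values, against 17.0% of all genes. The list's median was 0.49. The mitotic cyclins Ccnb2 (0.77 ± 0.14, adjusted p = 0.0598) and Ccnb1 (0.77 ± 0.18, adjusted p = 0.0983) and the kinase Mastl (0.81 ± 0.16, adjusted p = 0.0704), which blocks the phosphatase opposing CDK1, did not pass. Gadd45a, a damage-induced gene of the same list, went the other way, from 37.8 to 44.4 FPKM in vehicle to 25.7 to 29.6 FPKM in cisplatin (-0.58 ± 0.31, adjusted p = 0.417).

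Of 40 mitosis and spindle genes all 40 had a fold change above 0, against 62.0% of all genes. In 36 the groups separated upward, against 17.0% of all genes. Anln, the anillin scaffold of the cleavage furrow (chr9:22332012-22389188), was the member past the test, at 29.9, 31.3 and 34.9 FPKM in vehicle and 51.0, 49.0 and 50.4 FPKM in cisplatin. Its 3 cisplatin values were closer to each other than the vehicle values were. The log2 fold change of Anln was 0.63 ± 0.10 (adjusted p = 0.0374). The anaphase activator Cdc20 (0.72 ± 0.13), the ubiquitin-conjugating enzyme Ube2c (0.68 ± 0.13) and the spindle factor Tpx2 (0.62 ± 0.13) stood at adjusted p of 0.0598 to 0.0754. The list's median was 0.47, against 0.07 for all genes.

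Several genes outside these lists that act in the same processes rose. Nek2, a kinase that separates centrosomes (chr1:191821444-191833050), stood at 18.4, 18.8 and 22.5 FPKM in vehicle and 33.6, 35.1 and 33.8 FPKM in cisplatin (0.75 ± 0.13, adjusted p = 0.0459). Pbk, a mitotic kinase, stood at 39.7, 40.4 and 48.3 FPKM in vehicle and 74.9, 69.5 and 70.5 FPKM in cisplatin (0.73 ± 0.12). Diaph3, a formin that nucleates actin, stood at 6.20, 7.94 and 8.46 FPKM in vehicle and 15.5, 13.5 and 13.9 FPKM in cisplatin (0.85 ± 0.14). E2f8, a repressor of the E2F family whose level follows the cell cycle, also rose. It was at 16.9, 15.9 and 18.3 FPKM in vehicle and 28.0, 30.5 and 26.6 FPKM in cisplatin (0.70 ± 0.12). The tubulin genes Tubb6 and Tuba1c, which encode a beta and an alpha subunit of microtubules, rose from 116 to 133 and 155 to 163 FPKM to 189 to 221 and 234 to 254 FPKM. The adjusted p of Pbk, Diaph3, E2f8, Tubb6 and Tuba1c was 0.0374 to 0.049, and in each of them the groups were apart.

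Promoters of 3 cell division genes are shown as examples, with capitals for CCAAT and for TTTGAA, the cell cycle homology region (CHR), on either strand.
Nek2, chr1:191821353-191821472, plus strand: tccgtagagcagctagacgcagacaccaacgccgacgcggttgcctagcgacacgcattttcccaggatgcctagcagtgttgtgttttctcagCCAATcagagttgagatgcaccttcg
Cdc20, chr4:118437344-118437463, minus strand: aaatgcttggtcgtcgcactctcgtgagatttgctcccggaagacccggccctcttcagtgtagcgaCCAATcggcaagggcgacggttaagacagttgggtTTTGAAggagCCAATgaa
Ccnb2, chr9:70421555-70421674, minus strand: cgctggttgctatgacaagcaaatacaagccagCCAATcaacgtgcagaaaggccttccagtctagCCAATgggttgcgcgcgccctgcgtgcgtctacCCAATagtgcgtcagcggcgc
In the 250 bases before the start, CCAAT was in 24 of 37 promoters of the tested mitosis genes (64.9%). It was in 35.5% of the promoters of all genes tested and in 33.8% of all promoters in the table. TTTGAA was in 10 of the 37 (27.0%) and in 16.0% of all promoters. CCAAT boxes are the binding letters of NF-Y, a factor of many cell cycle promoters, and binding was not measured here.

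DNA replication genes had 0 of 38 past the test, while 29 of 38 separated upward, against 17.0% of all genes, and the median was 0.39. Rrm2, the ribonucleotide reductase subunit that supplies deoxynucleotides, stood at 51.5 to 69.9 FPKM in vehicle and 103 to 108 FPKM in cisplatin (0.83 ± 0.17, adjusted p = 0.0765). Of the 32 Fanconi anaemia and homologous recombination genes 0 passed, and 19 separated upward with a median of 0.31. The repair genes Brca1 (0.53 ± 0.13) and Exo1 (0.58 ± 0.14) had adjusted p of 0.102. Genes of nucleotide excision repair, the main route for platinum links within a strand, had 2 of 21 apart upward, 0 of 21 called and a list median of 0.13. Ercc1, which encodes the partner of the nuclease that cuts beside the lesion, was at 11.5 to 12.8 FPKM in vehicle and 12.4 to 15.1 FPKM in cisplatin (0.13 ± 0.12, adjusted p = 0.665). Thus 19 of 32 cross-link repair genes and 2 of 21 excision repair genes were apart upward, against 17.0% of all genes. A difference between the lists was not tested. Rad18, which marks stalled forks for bypass, had 0.61 ± 0.13 (adjusted p = 0.0774), and 0 of 9 bypass genes passed. Mismatch repair also had 0 of 7, with Msh6 at 27.2 to 32.7 FPKM in vehicle and 34.8 to 56.4 FPKM in cisplatin (0.60 ± 0.15, adjusted p = 0.111).

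The p53 target list had 0 of 27 genes past the test and a median of 0.06, close to that of all genes. Cdkn1a, the p21 inhibitor of cell cycle kinases, was at 10.3, 18.7 and 17.1 FPKM in vehicle and 37.7, 19.5 and 23.8 FPKM in cisplatin. The groups were apart by little, with vehicle 3 just under cisplatin 2, and the log2 fold change of 0.76 ± 0.34 did not pass (adjusted p = 0.332). Mdm2, the p53 ubiquitin ligase, had overlapping groups at 0.17 ± 0.17 (adjusted p = 0.689). Trp53 itself was at 45.5 to 49.0 FPKM in vehicle and 57.5 to 60.9 FPKM in cisplatin (0.30 ± 0.12, adjusted p = 0.29). The lowest adjusted p of the list was that of Gtse1, a mitotic protein that restrains p53, at 0.64 ± 0.14 (adjusted p = 0.0852). Among 15 damage checkpoint genes 0 passed, and Clspn, the adaptor between ATR and CHK1, had 0.70 ± 0.18 (adjusted p = 0.128).

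**Figure D3:**
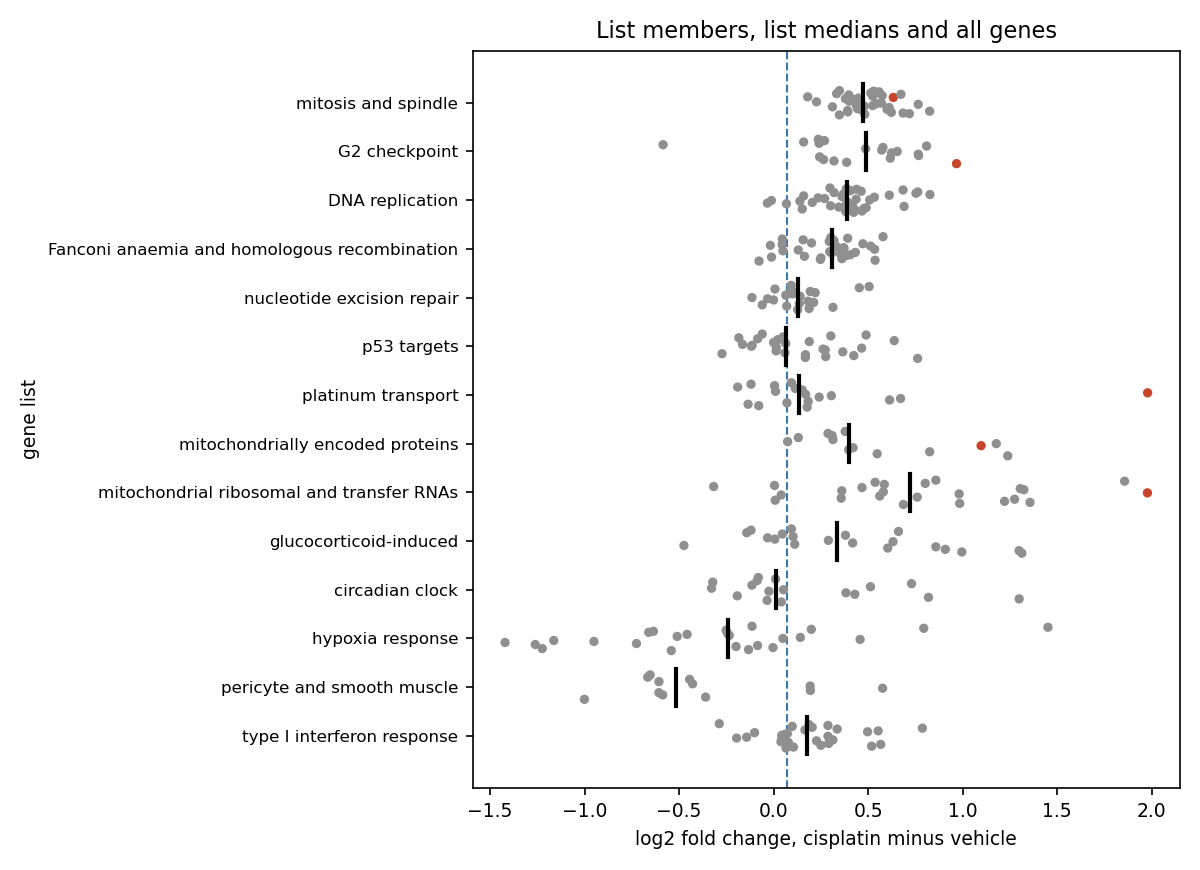
Each point is the log2 fold change of 1 tested gene, red where the adjusted p is under 0.05, with the list median as a black bar and the median of all genes (0.07) as a dashed line. All 40 mitosis genes lie above 0, and 1 gene each is past the threshold in the mitosis, G2 checkpoint, platinum transport and both mitochondrial lists.

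Lrrc8d encodes a part of the anion channel that opens when cells swell, through which platinum drugs can enter cells. The gene (chr5:105699969-105832436) stood at 2.96, 2.61 and 6.86 FPKM in vehicle and 20.2, 23.4 and 12.2 FPKM in cisplatin, a log2 fold change of 1.98 ± 0.33 (adjusted p = 0.0459). Nearly all of the rise was in the 3923-base transcript ENSMUST00000060531, at 0.401, 1.72 and 0.186 FPKM in vehicle and 16.7, 16.6 and 10.4 FPKM in cisplatin. The short transcripts ENSMUST00000127686 and ENSMUST00000154807 overlapped between the groups. In fragments Lrrc8d had 115, 198 and 96 in vehicle and 1463, 1619 and 898 in cisplatin. The other channel subunits and carriers did not pass. The obligate subunit Lrrc8a was at 9.65 to 11 FPKM in vehicle and 11.2 to 14.5 FPKM in cisplatin (0.24 ± 0.15, adjusted p = 0.488). The copper importer Slc31a1 was at 15.8 to 18.3 and 18.5 to 21.1 FPKM (0.18 ± 0.10, adjusted p = 0.442). The efflux pump gene Abcb1b was at 7.45 to 9.69 and 11.9 to 15.1 FPKM (0.61 ± 0.13, adjusted p = 0.0765). In all 1 of 18 tested platinum transport genes rose, with a median of 0.13, and Abcc2, an exporter of platinum conjugates, was below the filter.

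Transcripts of the mitochondrial genome differed unevenly. This genome is transcribed as long strands that are cut at the transfer RNAs, and it encodes subunits of respiratory complexes together with the RNAs of its own ribosome. mt-Nd5, a complex I subunit (MT:11742-13565), stood at 698, 507 and 464 FPKM in vehicle and 1256, 1062 and 1211 FPKM in cisplatin (1.10 ± 0.19, adjusted p = 0.049). The complex I genes mt-Nd1 and mt-Nd6 had fold changes of about this size without passing, and mt-Nd3 (0.83), mt-Nd2 (0.55), mt-Nd4l (0.42) and mt-Nd4 (0.40) had smaller ones. mt-Nd1 was at 1421, 1194 and 1062 FPKM in vehicle and 2784, 2726 and 3123 FPKM in cisplatin (1.24 ± 0.22, adjusted p = 0.0517). mt-Nd6, encoded on the opposite strand, was at 344 to 522 and 869 to 1059 FPKM (1.18 ± 0.22, adjusted p = 0.0631). The complex IV gene mt-Co1, the most abundant of the genome, was at 9629 to 10117 FPKM in vehicle and 9602 to 10971 FPKM in cisplatin (0.07 ± 0.20, adjusted p = 0.899). Of 13 protein-coding genes 1 rose, 11 separated upward, against 17.0% of all genes, and the median was 0.40.

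Among the 24 mitochondrial ribosomal and transfer RNAs 1 rose and 14 separated upward, against 17.0% of all genes, with a median of 0.72. The one that rose was mt-Tl1, a leucine transfer RNA gene (MT:2676-2750) that lies between mt-Rnr2 and mt-Nd1. It stood at 80.4, 104 and 63.9 FPKM in vehicle and 416, 208 and 390 FPKM in cisplatin, a log2 fold change of 1.98 ± 0.26 (adjusted p = 0.0225). Its next neighbour mt-Nd1, on the same strand, is described above. Transfer RNAs are shorter than most library fragments, so fragments of unprocessed transcripts and of the mature RNA cannot be told apart. Cisplatin 2 was the lowest cisplatin library for mt-Tl1, mt-Tw (9.0 FPKM against 18.1 and 22.5), mt-Tc and mt-Tn. Mitochondrial fragments made up 2.931% to 3.337% of each vehicle library and 3.455% to 3.74% of each cisplatin library.

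Of 20 genes known to be induced by glucocorticoid hormone 0 passed the test, 6 separated upward against 17.0% of all genes, and the median was 0.33. The members named first were highest in cisplatin 1 and 3, the libraries whose muscle marker score was 1.34 and 1.19, while cisplatin 2 had 0.389 and vehicle up to 0.408. With that score as a covariate the log2 fold changes of Per1, Fkbp5, Sgk1 and Klf9 were 1.33, 0.95, 0.97 and 0.96 (adjusted p of 0.0921 to 0.122). The score was highest in brivanib 3 and 5 (3.745 and 3.543), which are in that fit but outside the comparison. The part of muscle tissue in these values was not tested. Fkbp5, a chaperone of the glucocorticoid receptor, was at 42.4, 43.1 and 39.7 FPKM in vehicle and 93.8, 56.4 and 113 FPKM in cisplatin (1.0 ± 0.23, adjusted p = 0.0981). Tsc22d3, the leucine zipper protein GILZ, was at 18.4, 24.1 and 15.6 FPKM in vehicle and 68.2, 22.4 and 75.6 FPKM in cisplatin (1.31 ± 0.46, adjusted p = 0.219). For Tsc22d3 cisplatin 2 lay within the vehicle range. The kinase gene Sgk1 (0.91 ± 0.22, adjusted p = 0.107) and the transcription factor gene Klf9 (0.86 ± 0.25, adjusted p = 0.15) had groups apart. Per1, a clock repressor that is also induced by the hormone, was at 8.48, 16.2 and 8.92 FPKM in vehicle and 32.4, 17.8 and 37.4 FPKM in cisplatin (1.30 ± 0.28, adjusted p = 0.0827). Its relative Per2 stood at 2.02 to 2.97 and 4.66 to 5.52 FPKM (0.82 ± 0.15, adjusted p = 0.0598), with no such gap between the cisplatin libraries. Other glucocorticoid-induced members overlapped between the groups at or below 0, such as Ddit4 (-0.47), Arrdc2 (-0.14), Mt1 (-0.12) and Errfi1 (-0.03), or near 0, such as Nfkbia (0.01). Of 17 clock genes 0 passed and the median was 0.01. The sources used here give no time of tumour collection.

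**Figure D4:**
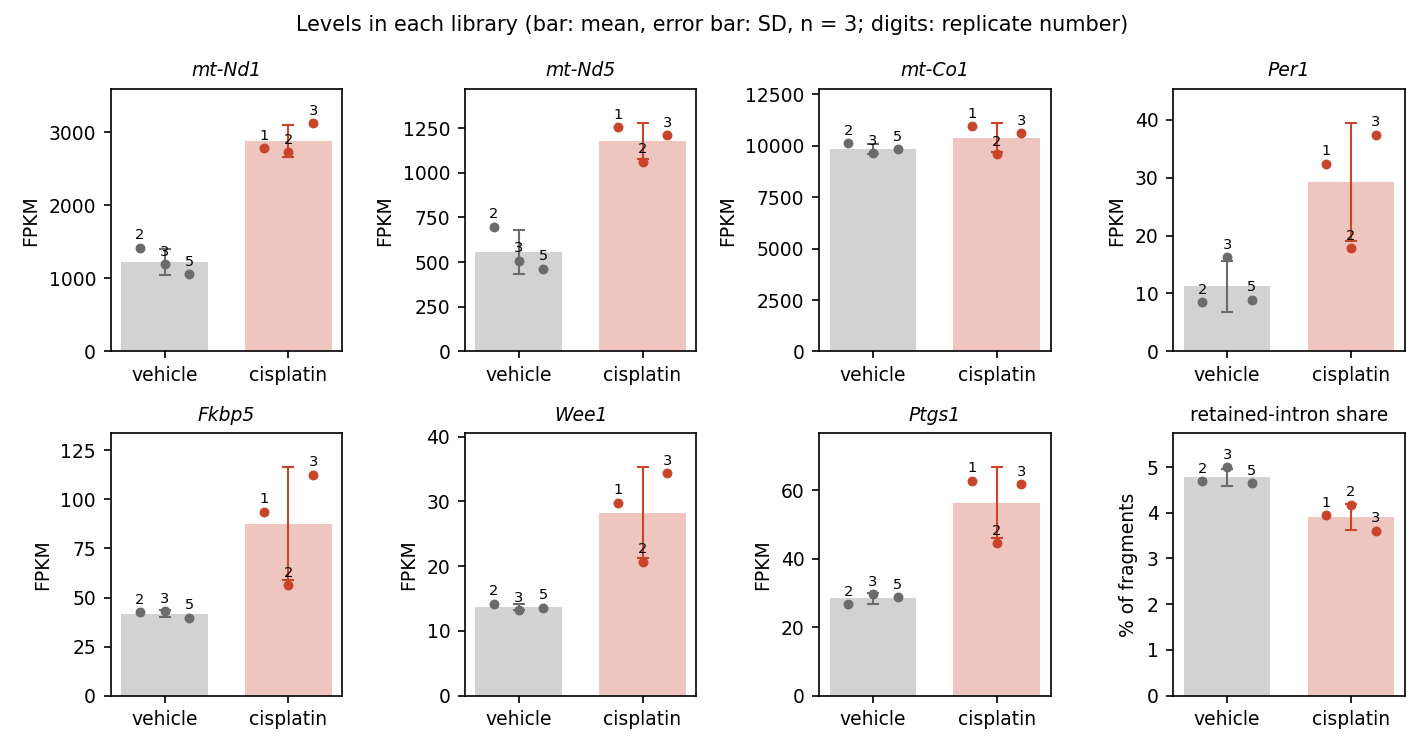
FPKM of 7 genes and the share of fragments on retained-intron transcripts are plotted for each of the 6 libraries, with bars for the mean and error bars for the SD (n = 3). Cisplatin 2 is the lowest cisplatin library for Per1 (17.8 FPKM), Fkbp5 (56.4 FPKM), Wee1 (20.7 FPKM) and Ptgs1 (44.5 FPKM), while mt-Co1 overlaps between the groups.

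The remaining genes that rose act in lipid signalling, cell death and membrane traffic. Ptgs1, the constitutive cyclooxygenase that makes prostaglandin precursors (chr2:36230426-36252272), stood at 26.7, 29.6 and 28.8 FPKM in vehicle and 62.7, 44.5 and 61.7 FPKM in cisplatin (0.95 ± 0.15, adjusted p = 0.0381). It was the only one of 10 prostaglandin genes past the test, and 4 of its transcripts had higher means in cisplatin. Acsbg1, which activates long-chain fatty acids, stood at 1.65, 2.56 and 2.68 FPKM in vehicle and 13.1, 7.77 and 5.89 FPKM in cisplatin (1.54 ± 0.24, adjusted p = 0.0385), the only one of 11 fatty acid activation genes. Bok, a death-promoting member of the BCL2 family, stood at 25.4, 24.2 and 22.2 FPKM in vehicle and 40.1, 40.7 and 46.8 FPKM in cisplatin (0.80 ± 0.12, adjusted p = 0.0381). The other 21 tested BCL2 family and caspase genes did not pass. Ehd4, an ATPase of endosomal recycling, stood at 33.3, 39.3 and 35.5 FPKM in vehicle and 57.8, 53 and 67.2 FPKM in cisplatin (0.70 ± 0.11).

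In some genes that rose, transcripts of the same gene had means on opposite sides. In Tuba1c the coding transcript ENSMUST00000058914 had means of 155 and 243 FPKM and the retained-intron transcript ENSMUST00000230447 had 4.15 and 2.49 FPKM. Slc39a9, a zinc transporter, stood at 9.27, 6.68 and 7.94 FPKM in vehicle and 18.1, 14.8 and 17.3 FPKM in cisplatin (0.99 ± 0.17, adjusted p = 0.0481). Its transcript ENSMUST00000085245 had means of 3.53 and 10.6 FPKM, while ENSMUST00000217889 had means of 1.98 and 0.727 FPKM. Zbtb6, a zinc finger factor, stood at 2.06, 1.70 and 1.2 FPKM in vehicle and 10.9, 10.7 and 9.31 FPKM in cisplatin (2.10 ± 0.28, adjusted p = 0.0225). Its transcript ENSMUST00000053098 had a mean of 0.0103 FPKM in vehicle and 10.2 FPKM in cisplatin, and ENSMUST00000112932 had 1.65 and 0.107 FPKM. None of these transcripts passed when transcripts were tested as features. Where transcripts of a gene or of overlapping genes share sequence, the split between them is an estimate.

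Mir8098, annotated as a microRNA gene (chr14:62837721-62837857), had 33, 46 and 39 fragments in vehicle 2, 3 and 5 and 1 fragment in each cisplatin library. In FPKM this was 10.2 to 15.1 and 0.313 to 0.356 (-3.41 ± 0.49, adjusted p = 0.0359). Its mature form is shown, with the seed (bases 2 to 8) in capitals, because it is the only microRNA gene among the 27.
mmu-miR-8098, chr14:62837797-62837817, plus strand: gCUAUGGUcgcuggcucccaa
Fragments were counted over the 137-base gene model and not over the mature microRNA, so the value is the level of that stretch of transcript. Brivanib 2, 3 and 5 had 1, 14 and 21 fragments there, and each combination library had 1.

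Among the genes that fell outside the red cell set were Dlg4, Ogt and Spaca6. Dlg4, the scaffold PSD-95 (chr11:70017085-70045532), stood at 15.8, 16.3 and 15.1 FPKM in vehicle and 9.79, 10.2 and 10.0 FPKM in cisplatin (-0.60 ± 0.09, adjusted p = 0.0374). Ogt, the transferase that puts N-acetylglucosamine on nuclear and cytosolic proteins (chrX:101640060-101684351), stood at 50.2, 53.8 and 51.6 FPKM in vehicle and 37.5, 35.8 and 30.6 FPKM in cisplatin (-0.57 ± 0.09, adjusted p = 0.0446). Spaca6, named for a sperm protein (chr17:17827158-17843009), stood at 33.1, 28.4 and 32.6 FPKM in vehicle and 16.9, 20.1 and 14.1 FPKM in cisplatin (-0.85 ± 0.15, adjusted p = 0.0481). In all 3 genes the groups were apart by more than the range within either group. A further gene model with a provisional name also fell.

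Much of the signal of Ogt and Spaca6 was on transcripts annotated as not coding for protein. In Ogt the retained-intron transcript ENSMUST00000150161 had means of 12.0 FPKM in vehicle and 6.88 FPKM in cisplatin with the groups apart, and the processed transcript ENSMUST00000147635 had 23.6 and 15.7 FPKM with overlap. Of the protein-coding transcripts, ENSMUST00000119299 had means of 6.73 and 5.83 FPKM and ENSMUST00000044475 had 4.84 and 2.57 FPKM. Both overlapped between the groups. In Spaca6 the 4 transcripts with the highest vehicle means were all annotated as retained introns. In Dlg4 the main coding transcript ENSMUST00000108588 overlapped at means of 5.44 and 4.13 FPKM, and the decay-class transcript ENSMUST00000123687 was apart at 2.84 and 1.16 FPKM. None of these transcripts passed on its own.

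Retained-intron transcripts as a class, examined after these values were seen, stood lower in cisplatin tumours. They took 4.69%, 4.99% and 4.64% of the fragments in vehicle 2, 3 and 5 and 3.95%, 4.18% and 3.61% in cisplatin 1, 2 and 3, with ribosomal features left out. Of 4957 such transcripts with a mean of at least 1 FPKM, 917 (18.5%) separated downward and 186 (3.75%) upward. For the 17982 protein-coding transcripts the shares were 4.98% downward and 14.5% upward, and for all 28610 transcripts 8.13% and 11.6%. No single retained-intron transcript passed limma's adjusted test, in which 4 transcripts of any class were called higher (0.014%) and 3 lower (0.0105%). In 2905 genes that had both kinds of transcript, the retained-intron part of the gene's FPKM separated downward for 568 (19.6%) and upward for 62 (2.13%). The median of that part was 15.1%, 16.3% and 14.9% in vehicle and 12.6%, 13.0% and 11.2% in cisplatin. Such transcripts can also collect fragments of unspliced nuclear RNA, and the part played by RNA extraction, for which the labels name 2 reagents without tying them to samples, was not tested.

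Lists of stress, immune and vascular genes had no member past the test. The type I interferon response list had 0 of 28 and a median of 0.18, and its member Ifit2 stood at 10.0 to 12.3 FPKM in vehicle and 14.9 to 18 FPKM in cisplatin (0.52 ± 0.14, adjusted p = 0.13). The class I presentation gene H2-D1 stood at 382 to 485 and 564 to 572 FPKM (0.40 ± 0.12, adjusted p = 0.159), in a list with 0 of 19. Cgas, the sensor of cytosolic DNA, was below the filter, and of the cGAS-STING genes 0 of 11 were called, around a median of 0.04. Hypoxia response genes had 0 of 25, with 9 apart downward, against 6.72% of all genes, and a median of -0.24. Of these 25 genes 19 were below 0 and 6 above 0, with log2 fold changes from -1.42 to 1.45. Among the 25 the glucose transporter Slc2a1 was at 48.3, 86.6 and 109 FPKM in vehicle and 38.8, 38.2 and 22.8 FPKM in cisplatin (-1.22 ± 0.57, adjusted p = 0.357). The NRF2 antioxidant list had 0 of 16 and a median of 0.08, and the unfolded protein and integrated stress list had 0 of 17 and a median of 0.16.

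Pericyte and smooth muscle markers had 0 of 12 past the test, 5 apart downward, against 6.72% of all genes, and a median of -0.52. Rgs5, a signalling regulator of pericytes, was at 16.3, 18.8 and 14.4 FPKM in vehicle and 7.58, 8.63 and 7.01 FPKM in cisplatin (-1.0 ± 0.21, adjusted p = 0.0773). Of 15 fibroblast and matrix genes 0 passed, 9 were above 0 and the median was 0.39, with Mmp2 at 1.23 and Fbn1 at 0.90. The member with the lowest adjusted p went the other way, the matrix proteoglycan gene Dcn, which was at 138, 128 and 139 FPKM in vehicle and 86.0, 55.9 and 71.5 FPKM in cisplatin (-0.94 ± 0.19, adjusted p = 0.0704). T cell markers had 0 of 10 past the test and 3 apart downward, against 6.72% of all genes. The receptor chain Cd3g was at 5.88, 3.80 and 0.906 FPKM in vehicle and 0.192, 0.335 and 0.829 FPKM in cisplatin (-1.48 ± 0.43, adjusted p = 0.151). Of the macrophage list 0 of 18 were called, around a median of 0.17. Cd163, a scavenger receptor, was at 0.23 to 0.96 FPKM in vehicle, 7.47 FPKM in cisplatin 1 and 1.13 and 1.51 FPKM in cisplatin 2 and 3. Cisplatin 1 also had the most fat and muscle marker signal of these 6 libraries. The log2 fold change of Cd163 was 1.23 ± 0.44 (adjusted p = 0.231). It was 1.25 in a fit that held the muscle score as a term and 1.19 in one that held the adipocyte score (adjusted p of 0.27 and 0.302). The part of fat and muscle tissue in this value was not tested.

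The combination and brivanib libraries give the same contrast, cisplatin against none, in separate samples that all had brivanib. Both contrasts took the spread of each gene from the same fit to 12 libraries, so their tests are not independent. There 551 of 14246 genes passed (3.87%), with 2.02% higher and 1.85% lower. Of the 27 genes called for cisplatin alone, 25 had the same direction there, and the share of all genes that did was not counted. In that direction 15 passed there. The 15 were the 4 globin genes, Alas2, mt-Tl1, mt-Nd5, Wee1, Ptgs1, Ehd4, Acsbg1, Pbk, Nek2, Dlg4 and Spaca6. Without brivanib 5, in which ribosomal-like features took 37.749% of the fragments, the number was 11, and without combination 2, a library with muscle signal, it was 8. Those 8 were the 4 globin genes, mt-Tl1, Ptgs1, Wee1 and mt-Nd5. Leaving out combination 3 cut the 551 calls of this contrast most, to 61, and the 27 genes were not counted in that setting.

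In this second setting Wee1 stood at 12.2, 12.1 and 14.3 FPKM in brivanib and 26.5, 28.9 and 26.2 FPKM in the combination (1.02 ± 0.15, adjusted p = 0.00905). Ptgs1 stood at 28.1, 27.9 and 22 FPKM in brivanib and 55.7, 71.2 and 62.8 FPKM in the combination (1.25 ± 0.15, adjusted p = 0.0025). mt-Nd5 stood at 494, 726 and 465 FPKM in brivanib and 1206, 1293 and 1121 FPKM in the combination (1.13 ± 0.19, adjusted p = 0.0122). The groups were apart in each of these genes, as they were with cisplatin alone. The 4 globin genes summed to 40193, 9554 and 5943 fragments in brivanib 2, 3 and 5 and to 66, 244 and 54 in combination 2, 3 and 4. Glucocorticoid-induced genes had 6 of 20 higher past the test there against 2.02% of all genes, among them Fkbp5 (1.38, adjusted p = 0.0122) and Tsc22d3 (2.49, adjusted p = 0.0167). Retained-intron transcripts separated downward in 9.82% and upward in 5.73% of 4957, and all transcripts in 7.5% and 10.4%. Their share of fragments overlapped, at 4.58%, 4.16% and 4.59% in brivanib 2, 3 and 5 and 3.91%, 3.83% and 4.18% in combination 2, 3 and 4. The median part within genes also overlapped, at 15.5%, 12.3% and 14.6% in brivanib and 12.9%, 12.7% and 12.4% in the combination.

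Lrrc8d and Slc39a9 had the opposite sign with brivanib. Without brivanib 5, the library with 37.749% ribosomal-like fragments, only Slc39a9 had it on the FPKM scale. Lrrc8d stood at 8.94, 5.09 and 11.4 FPKM in brivanib and 7.56, 6.07 and 7.63 FPKM in the combination (-0.18 ± 0.33, adjusted p = 0.799). In fragments Lrrc8d had 670, 277 and 833 in brivanib 2, 3 and 5 and 133, 127 and 308 in combination 2, 3 and 4. Slc39a9 stood at 11.2, 14.3 and 14.3 FPKM in brivanib and 9.01, 13.9 and 9.97 FPKM in the combination (-0.27 ± 0.17, adjusted p = 0.384). Neither pair of groups was apart. The test of the difference between the 2 settings, an interaction term, was at an adjusted p of 0.0711 for Slc39a9 and 0.109 for Lrrc8d. It passed for 0 of the 27 genes, with 9 at an unadjusted p under 0.05, and for 20 of all 14246 genes (0.14%).

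**Figure D5:**
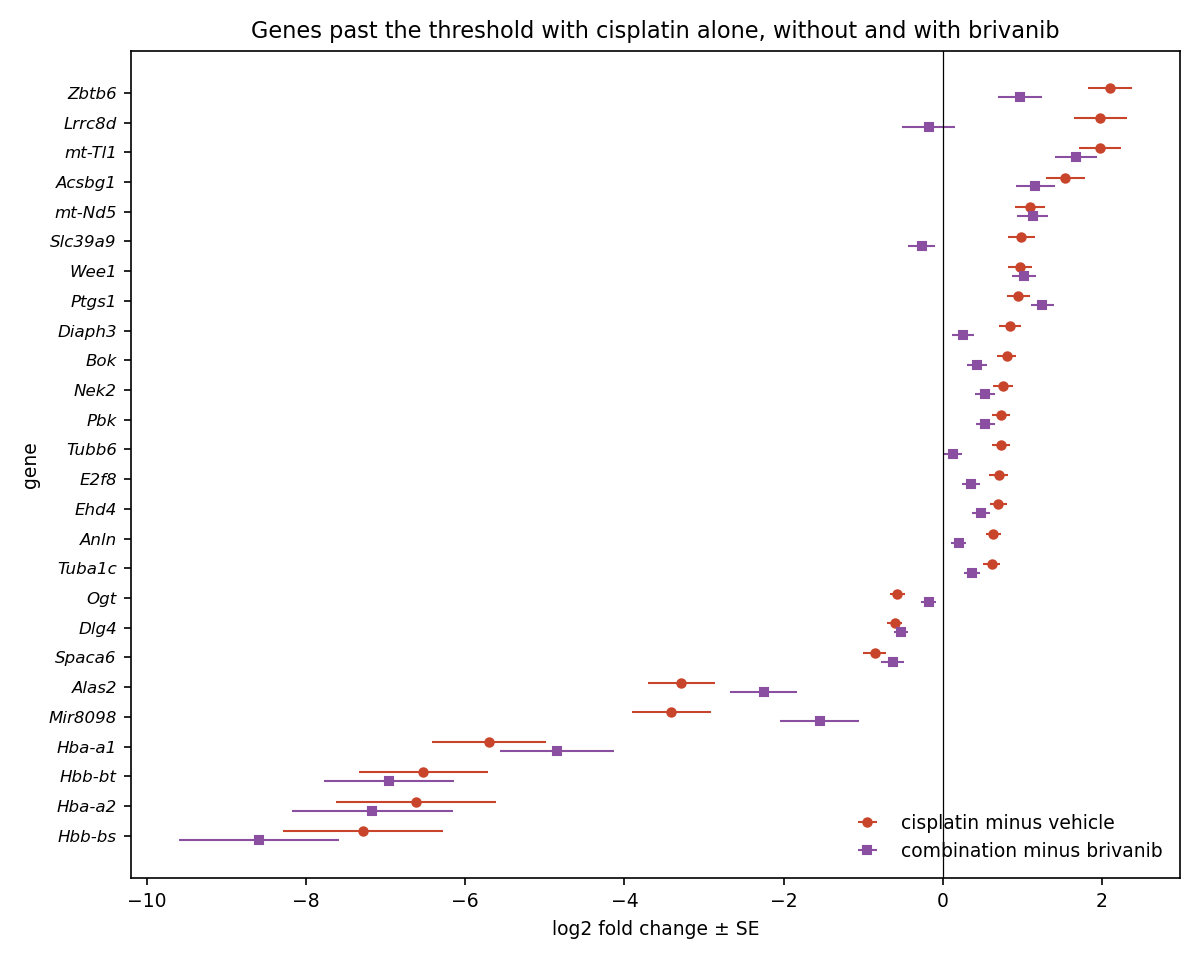
The log2 fold change ± SE of the 26 called genes with established names is plotted for cisplatin minus vehicle (circles) and for combination minus brivanib (squares), which share no library. Both take the SE of a gene from the same fit. Lrrc8d and Slc39a9 lie on opposite sides of 0. Without brivanib 5 this held for Slc39a9 only, on the FPKM scale. Hbb-bs and Hbb-bt, at 0 in all combination libraries, have squares that depend on the added 1 FPKM.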

How the data were processed

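RNA-seq of 12 tumours was deposited as FPKM per transcript. Per the labels' design text the authors used Bowtie2 to align and RSEM to estimate FPKM, and the submitters' processing notes give versions 2.2.5 and 1.2.12 (RSEM). That text names mm10 and the notes mm9. Of 135276 transcripts 135047 were in GENCODE M21, and 98.48% of those had identical coordinates on GRCm38. Of the per-sample columns 1 matched no label and was not used, and 3 broken lines were dropped. FPKM were summed per gene, and whole fragments were recovered from FPKM times length. The test was limma's (version 3.58.1, R 4.3.3) on log2(FPKM + 1), with a mean per group over 12 libraries, 8 residual degrees of freedom, a variance trend, two-sided tests and Benjamini-Hochberg adjustment over 14246 genes. Fold changes on this scale understate changes of low genes. Every called gene is named unless its name is provisional. Further named genes are a panel and members of the lists, in some lists more than 4. These members were not always those with the lowest p. Members and lists were chosen with earlier results of these data known. Of the listed symbols, Ahsp and Rad6a matched no gene. Promoters and the microRNA are from RefSeq (GRCm38.p6), which matched 20 of the 27 called genes. In simulated data the procedure called 28.4% of the genes changed 1.5-fold, 56.7% at 2-fold and 86.4% at 4-fold, with 5 false calls. A gene that did not pass may therefore still differ by such amounts. The labels do not say whether replicate numbers pair the libraries, and the main fit used no pairing.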

Additional observations from a re-analysis of the deposited data

How the results depend on the processing

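The 27 calls for cisplatin against vehicle became 13 at a pseudocount of 0.1, 7 without a filter, 45 at a mean of at least 5 FPKM, 11 after rescaling to equal FPKM totals, 15 under median-of-ratios scaling, 9 without ribosomal-like features and at equal totals, 0 with voom (1907 at an unadjusted p under 0.05), 42 in a fit to the 6 libraries alone, and 14 and 5 with the muscle and the adipocyte score as covariates. The genes called changed as well as their number. Among the 27 were 15 of the 42 from the 6 libraries alone, 25 of the 45 and 1 of the 7 without a filter. Chosen after seeing the data, the 6 libraries rescaled to equal totals gave 5, and leaving out cisplatin 1 and brivanib 5 gave 5. The share of higher calls was 63.0%, against 36.4%, 26.7% and 22.2% under the 3 scalings. The replicate block, whose numbers the labels do not tie to a shared source (same-numbered vehicle and cisplatin libraries correlated at r = -0.113 and -0.11 over genes), left 0 cisplatin calls (1455 unadjusted), 168 calls of combination against brivanib and 1 interaction call. Leaving out 1 library gave 0 to 100 calls, with 0 without vehicle 2, 3 or 5 (1641, 1438 and 1914 unadjusted), 5 without cisplatin 1, 3 without cisplatin 3, 100 without brivanib 2, 42 without brivanib 3, 9 without brivanib 5 and 10 without combination 2.

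For the combination against brivanib, 551 calls became 317 at a mean of at least 5 FPKM, 288 at equal totals and 212 without cisplatin 1 and brivanib 5, and 61 (without combination 3) to 646 with 1 library left out. The 20 interaction calls became 0 at a pseudocount of 0.1, 52 at 5, 2 at a mean of at least 5 FPKM, 45 at equal totals, 13 without ribosomal-like features and at equal totals, 0 with voom, 1 with the muscle score, 1 without cisplatin 1 and brivanib 5, and 1 to 27 with 1 library left out. The causes were not tested. For cisplatin against vehicle, none of the 27 genes changed sign in any alternative run. The median for retained-intron transcripts, -0.18, was -0.23 at equal totals and -0.22 to -0.15 with 1 of the 6 libraries left out. Genes with a mean under 1 FPKM were tested only in the fit without a filter.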

Other observations

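With transcripts as features, 7 of 28610 passed limma's adjusted p of 0.05, and 4 belong to genes with established names, which were chosen after their values were seen. The Sulf2 transcript ENSMUST00000088086, of a sulfatase that edits heparan sulfate, stood at 0, 0 and 0.0796 FPKM in vehicle and 2.94, 2.69 and 3.57 FPKM in cisplatin (1.98 ± 0.18, adjusted p = 0.00663). The Naa35 transcript ENSMUST00000172166, of a subunit of an N-terminal acetyltransferase, stood at 0.0706 to 0.333 FPKM and 3.51 to 4.73 FPKM (2.12 ± 0.19, adjusted p = 0.00663). The Mrtfa transcript ENSMUST00000135047, of a coactivator of serum response factor, went from 3.80 to 5.56 FPKM in vehicle to 0.0206 to 0.355 FPKM in cisplatin (-2.38 ± 0.26, adjusted p = 0.0214). The Stx5a transcript ENSMUST00000176013, of a syntaxin of the Golgi, went from 8.80 to 11.2 FPKM to 0.387 to 0.465 FPKM (-2.89 ± 0.36, adjusted p = 0.0466). Summed over transcripts these genes did not pass, with log2 fold changes of 0.52 for Sulf2, 0.24 for Naa35, 0.11 for Mrtfa and -0.21 for Stx5a.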
